A study of Solanum lycopersicum with 2 samples.

Results

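The tomato SELF-PRUNING (SP) family of florigen-like genes was examined in young primary leaves of seedlings (Solanum lycopersicum), with the other flowering regulators that the expression table names. The deposited table gives expression per locus as FPKM (fragments counted per kilobase of sequence and per mega of fragments). Members were the loci whose gene symbol fits the names of SP genes, SFT, LFY, FA, RIN or the TAGL, TM and MADS genes. This took 2 of 17803 loci with a gene, SP5G and SP2G. A reference gene table lists 13 symbols of this kind. One of the others, TAGL1, stands in the expression table under its second name ALQ and is given with the floral genes. The remaining ones, SFT and SP among them, are not named there and were not analysed here.

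The first library came from seedlings overexpressing SlRBZ and the second from wild-type seedlings. Both were made from leaf total RNA extracted with TRIzol. The sources used here do not give the promoter, the number of plants per library or the number of independent transgenic events. SlRBZ is not named in the table, and its own level was not analysed here. The series' design text speaks of duplicates, but 1 library per genotype was analysed here, and whether each stands for pooled duplicates is not given. No difference has a replicate check, and no test was possible. In bulk leaf RNA, fewer cells of a type and less RNA per cell cannot be told apart.

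Florigens and their relatives are small proteins that resemble phosphatidylethanolamine-binding proteins. The Arabidopsis member FT is made in leaves under inductive day length, travels to the shoot apex and there, with 14-3-3 proteins and the bZIP factor FD, switches on flowering. Relatives of the TFL1 and SP type oppose this switch. In tomato SP5G is an FT-like gene that acts in the reverse sense, as a repressor of flowering in long days. SP2G carries the further names MFT and SP2I in the reference table. MFT of Arabidopsis is known mainly for its role in seed germination.

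SP5G showed the most extreme pair of values among the flowering loci. It was listed at 0 FPKM in the overexpressor, against 1937 FPKM in wild type (chromosome 5, plus strand, 63036304 to 63038329). The wild-type value is 124 times the median of all gene loci in that library, 15.6 FPKM, and ranks SP5G at place 198 of 17803. At an effective length of 1 kb it stands for 14472 fragments in the wild-type library, in which 1 FPKM is worth 7.47 fragments. In the overexpressor, 1 FPKM is worth 14.2 fragments at that length, so its library was the deeper one. No fold is given, since an exact 0 in a table of FPKM can be a failed estimate and the table carries no status for its values.

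The 0 of SP5G was compared with the other zeros of the table. In the overexpressor 15 gene loci (0.0843%) were listed at 0, and in wild type 305 (1.71%). Of the 15 loci, 5 read at least 100 FPKM in wild type, and the median wild-type value of all 15 was 21.0 FPKM. Only Solyc05g010040.2 stood higher than SP5G, at 0 FPKM in the overexpressor and 21365 FPKM in wild type. Of the 373 gene loci with at least 1000 FPKM in wild type, these 2 were listed at 0 in the overexpressor. The lowest value above 0 among the other such loci was 16.2 FPKM in the overexpressor, against 1516 FPKM in wild type, a ratio of wild type to overexpressor of 93.6. The zeros of SP5G and Solyc05g010040.2 were thus separated by a gap from the overexpressor values of the other loci at this level.

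Zeros opposite a high value were also present in the other direction. Of the 305 gene loci listed at 0 in wild type, 15 read at least 100 FPKM in the overexpressor. LECNX61.0 was listed at 116222 FPKM in the overexpressor and at 0 in wild type. LYSRS, by its name a lysyl-tRNA synthetase gene, read 32.6 FPKM in the overexpressor and was listed at 0 in wild type. Whether the 0 of SP5G is an absence of transcript or a missing estimate was not tested.

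**Figure D1:**
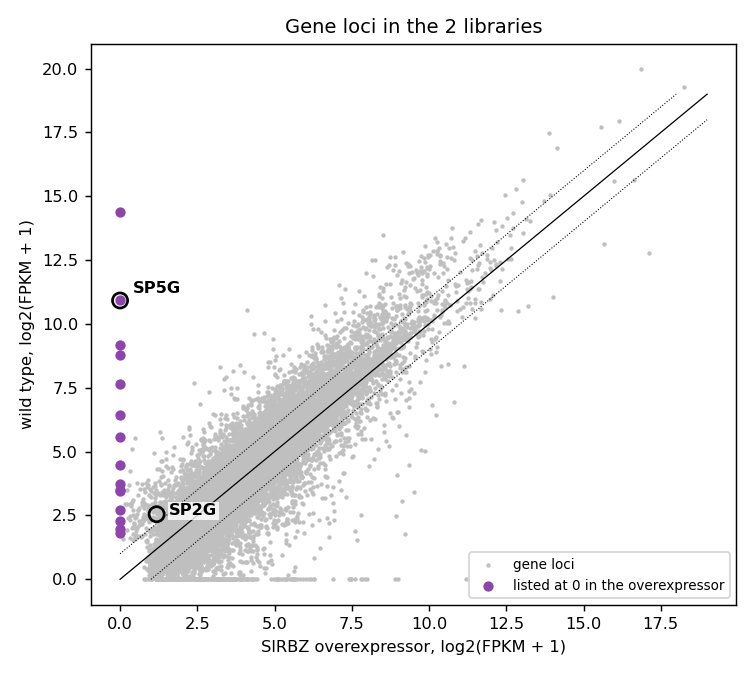
Level of each gene locus in the SlRBZ overexpressor (horizontal) and in wild type (vertical), both as log2(FPKM + 1), 1 point per locus, with the solid line at equal levels and the dotted lines at 2-fold differences. The 15 loci listed at 0 in the overexpressor are drawn in purple, and SP5G, at 1937 FPKM in wild type, lies far to the left of the loci of similar wild-type level, while SP2G lies near the low end of the main cloud.

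SP2G was a low-level locus and was lower in the overexpressor. It read 1.27 FPKM in the overexpressor and 4.85 FPKM in wild type (chromosome 2, plus strand, 38483107 to 38484365), at places 17563 and 14152 among the gene loci of each library. The difference was −1.37 on the log2(FPKM + 1) scale, overexpressor minus wild type, a 2.58-fold lower level on that scale. For a locus as low as this one, the added 1 makes the difference smaller than the plain ratio. Counted over the whole span of the locus, the values stand for at most 19 overexpressor fragments and 38 wild-type fragments. At these counts the 95% Poisson intervals were 0.758 to 1.96 FPKM for the overexpressor and 3.40 to 6.59 FPKM for wild type. How many other gene loci have intervals as far apart was not examined. The ratio of overexpressor to wild type was 0.262, with an exact binomial 95% interval of 0.143 to 0.466. These intervals cover counting error only, and they widen if the counted exons are shorter than the span. Scaled to equal sums without the 100 most abundant gene loci, the difference was −0.96, under the 2-fold limit.

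Of the 2 members, 1 thus had a difference past 2-fold, SP2G on the lower side, and SP5G was given none. In the same comparison, of the 17631 gene loci whose 2 values averaged 1 FPKM or more, 15.0% lay past 2-fold on the lower side and 11.6% on the higher side, 26.6% in all. These shares include 15 lower and 251 higher loci that were listed at 0 in 1 library, and SP5G is among those 15, so the shares count it and the member count does not. Over all these loci the median difference was −0.05, with quartiles of −0.60 and 0.47. The members had been picked out with their values known, so this count describes the 2 loci and supports nothing further.

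The loci around SP5G did not share its pattern. Among the 10 loci on each side, from −102 to 121 kb counted between starts of loci, none was listed at 0 in either library. Overexpressor values of these loci lay between 1.96 and 408 FPKM, and wild-type values between 0.468 and 580 FPKM. The median difference of the 20 neighbours was 0.13, with a range of −1.71 to 1.46, against a median of −0.05 over all gene loci tested. Of these 20 neighbours, 3 were past 2-fold higher in the overexpressor and 1 was past 2-fold lower. Among all gene loci tested the shares were 11.6% higher and 15.0% lower.

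Before SP5G in chromosome coordinates lay 3 stranded loci without a gene, the nearest ending 8.84 kb from its start. That nearest locus read 114 FPKM in the overexpressor and 89.4 FPKM in wild type. The second read 71.8 FPKM in the overexpressor and 62.0 FPKM in wild type, and the third 67.3 FPKM in the overexpressor and 53.6 FPKM in wild type. All 3 lie on the strand of SP5G and were slightly higher in the overexpressor, by differences of 0.34, 0.21 and 0.32. The other 7 loci on this side differed by between −0.51 and 0.25.

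After SP5G, the nearest locus was Solyc05g053870.2 on the opposite strand, 12.5 kb beyond its end. It read 44.8 FPKM in the overexpressor and 149 FPKM in wild type, a 3.27-fold lower level, and was the only neighbour of the 20 past 2-fold in that direction. The second locus read 22.6 FPKM in the overexpressor and 21.6 FPKM in wild type, and the third 19.5 FPKM in the overexpressor and 11.6 FPKM in wild type. The next places held the higher neighbours Solyc05g053900.2, at 14.2 FPKM in the overexpressor and 4.53 FPKM in wild type, and Solyc05g053930.2, at 17.1 FPKM in the overexpressor and 5.87 FPKM in wild type. The remaining higher neighbour was a low locus, at 1.96 FPKM in the overexpressor and 0.468 FPKM in wild type. No neighbour overlapped SP5G on either strand.

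**Figure D2:**
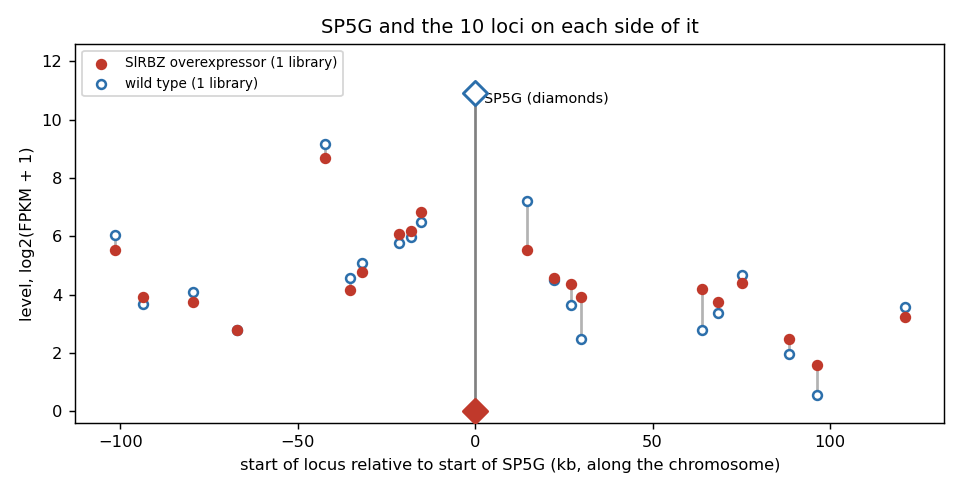
Levels as log2(FPKM + 1) of SP5G (diamonds) and of the 10 loci on each side of it (circles), against the distance in kb between the start of each locus and the start of SP5G, with filled red symbols for the SlRBZ overexpressor, open blue symbols for wild type and a grey line joining the 2 values of a locus. The differences of the 20 neighbours lie between −1.71 and 1.46, with 3 past 2-fold higher and 1 past 2-fold lower. SP5G is listed at 0 in the overexpressor and at 1937 FPKM in wild type.

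SP2G also differed from most of its neighbours. Of the 10 loci on each side, 19 averaged 1 FPKM or more, with a median difference of −0.14. Beside 11.6% higher and 15.0% lower among all gene loci tested, 1 of these 19 was past 2-fold higher and 1 past 2-fold lower. The higher one, 117 kb before SP2G, read 148 FPKM in the overexpressor and 16.9 FPKM in wild type, a difference of 3.06 and the widest of the 20. The lower one is a locus that joins a pair of genes, at 30.0 FPKM in the overexpressor and 126 FPKM in wild type. The closest locus, which starts 0.561 kb beyond the end of SP2G on the opposite strand, read 4.21 FPKM in the overexpressor and 3.93 FPKM in wild type.

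No named locus had a pattern close to that of SP5G. By distance over log2(FPKM + 1) in the 2 libraries, the nearest loci with a gene symbol were GA20OX1, PSAJ, GPAT, GPI and FSM1, at distances of 5.83 to 5.96 log2 units. GA20OX1, a gibberellin oxidase gene, read 17.8 FPKM in the overexpressor and 119 FPKM in wild type. The nearest of all gene loci was another of the 15 loci listed at 0 in the overexpressor, with 570 FPKM in wild type, at a distance of 1.76. For SP2G, GA2OX2 was nearest at a distance of 0.18, with 1.58 FPKM in the overexpressor and 4.86 FPKM in wild type, followed by TSRF1 at 0.21. Such a likeness over 2 libraries is a description only.

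Upstream of the florigens, CONSTANS of Arabidopsis activates FT in long days. The table names a pair of CONSTANS-like loci that are neighbours on the minus strand of chromosome 2, and they differed in opposite directions. CO3 (45891818 to 45893830) read 8.27 FPKM in the overexpressor and 0.821 FPKM in wild type, 5.09-fold higher on the log2(FPKM + 1) scale. CO1 (45900821 to 45903662) read 38.8 FPKM in the overexpressor and 65.3 FPKM in wild type, a difference of −0.74 that was under 2-fold. CO3 remained at least 2-fold higher and CO1 under 2-fold lower at equal upper quartiles, equal medians and equal sums without the 100 most abundant gene loci. Reads shared between the pair, if any, were not examined here.

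Light reaches the florigens through phytochromes and cryptochromes, photoreceptors of red and blue light. Of 6 photoreceptor loci, 2 (33.3%) were past 2-fold lower and 0 past 2-fold higher, beside 15.0% lower and 11.6% higher among all gene loci tested, and the median difference was −0.42. PHYB2, which lies on chromosome 5 at 383 kb from SP5G, read 20.9 FPKM in the overexpressor and 51.1 FPKM in wild type. PHYE read 13.2 FPKM in the overexpressor and 32.4 FPKM in wild type. PHYB1, the tomato phytochrome known to act on SP5G, read 25.7 FPKM in the overexpressor and 35.8 FPKM in wild type, under 2-fold. PHYA was the one photoreceptor locus with a higher value in the overexpressor, at 19.3 FPKM, against 13.8 FPKM in wild type. PHYF read 7.59 FPKM in the overexpressor and 10.2 FPKM in wild type, and CRY1B 38.8 FPKM in the overexpressor and 40.1 FPKM in wild type. At equal upper quartiles PHYE was just under 2-fold (−0.997), PHYB2 just past it, and CRY1B turned to a higher value (0.21). Scaled without the 100 most abundant gene loci, both PHYB2 and PHYE were under 2-fold, PHYA was past 2-fold higher, and PHYB1, PHYF and CRY1B turned to higher values.

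The 14-3-3 proteins, encoded by the TFT genes of tomato, bind florigens and SP and bridge them to FD-type factors. All 10 TFT loci in the table were well expressed, between 62.2 and 396 FPKM in the overexpressor and between 33.2 and 689 FPKM in wild type. Of these, 2 (20%) were past 2-fold lower and 0 past 2-fold higher, close to the 15.0% lower of all gene loci tested and below the 11.6% higher, with a median difference of −0.31. TFT1 read 206 FPKM in the overexpressor and 689 FPKM in wild type, 3.34-fold lower. TFT9 read 129 FPKM in the overexpressor and 273 FPKM in wild type, 2.12-fold lower. TFT6 and TFT10 leaned the other way, TFT6 at 122 FPKM in the overexpressor and 66.6 FPKM in wild type, and TFT10 at 62.2 FPKM in the overexpressor and 33.2 FPKM in wild type. Under equal upper quartiles and under equal sums without the 100 most abundant gene loci, TFT9 was under 2-fold and TFT6 and TFT10 were past 2-fold higher. TFT1 stayed at least 2-fold lower under both.

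Among 6 loci listed by symbol under regulators of meristems, flowering or light repression, 1 was past 2-fold lower and 0 past 2-fold higher, with a median difference of −0.67. It was COP1, a repressor of light responses, at 57.9 FPKM in the overexpressor and 125 FPKM in wild type. J (JOINTLESS), a MADS-box gene of the pedicel abscission zone and the inflorescence meristem, read 145 FPKM in the overexpressor and 226 FPKM in wild type. The homeobox genes LET12 and TKN2 read 121 and 3.47 FPKM in the overexpressor, and 198 and 6.61 FPKM in wild type. DET1 and DDB1, which act together in light repression, read 17.9 and 28.9 FPKM in the overexpressor, and 21.8 and 24.8 FPKM in wild type. COP1 was under 2-fold at equal upper quartiles and at equal sums without the 100 most abundant gene loci, and the differences of J and DET1 changed sign under at least one other scaling. Over the 24 loci of these 4 lists together, 1 (4.17%) was past 2-fold higher and 5 (20.8%) past 2-fold lower, beside 11.6% higher and 15.0% lower among all gene loci tested, and their median difference was −0.39. This balance followed the scaling, with 3 higher and 2 lower loci at equal upper quartiles (median −0.15, against 0.19 over all gene loci). At equal sums without the 100 most abundant gene loci it was 4 higher and 1 lower, with a median of 0.24, against 0.58 over all gene loci.

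Genes of floral identity and floral organs stand downstream of the florigens, mostly at the apex. The table names 6 loci taken as such by their symbols, outside the SP, TAGL, TM and MADS names. They were chosen after their values had been seen. FALSIFLORA, the tomato LFY gene that gives the floral meristem its identity, read 3.43 FPKM in the overexpressor and was listed at 0 in wild type. ALQ, another name of the MADS-box gene TAGL1, read 4.10 FPKM in the overexpressor and was also listed at 0 in wild type. AG1, the tomato AGAMOUS gene of stamen and carpel identity, read 2.53 FPKM in the overexpressor and 0.242 FPKM in wild type. All 3 values in the overexpressor were low. The zeros of FALSIFLORA and ALQ are 2 of the 305 in wild type, among them that of LYSRS, and can likewise be failed estimates, so no fold is given for them.

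The other 3 of these 6 loci had higher levels. LEFUL1, a FRUITFULL-type MADS-box gene, read 55.9 FPKM in the overexpressor and 16.3 FPKM in wild type, 3.29-fold higher. LEGLO2 was taken as a GLOBOSA-type gene of petal and stamen identity by its symbol alone, and whether it is that gene was not examined. It read 258 FPKM in the overexpressor and 457 FPKM in wild type. TDR6, also named TM6, read 19.8 FPKM in the overexpressor and 15.8 FPKM in wild type. LEGLO2 and TDR6 were thus under 2-fold, LEGLO2 on the lower side (−0.82) and TDR6 on the higher side (0.31). With LEGLO2 and the zeros of FALSIFLORA and ALQ counted, 4 of the 6 loci taken as floral (66.7%) were past 2-fold higher and 0 lower. Among all gene loci tested, 11.6% were higher and 15.0% lower. Since the 6 loci were chosen with their values seen, this share describes them only.

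**Figure D3:**
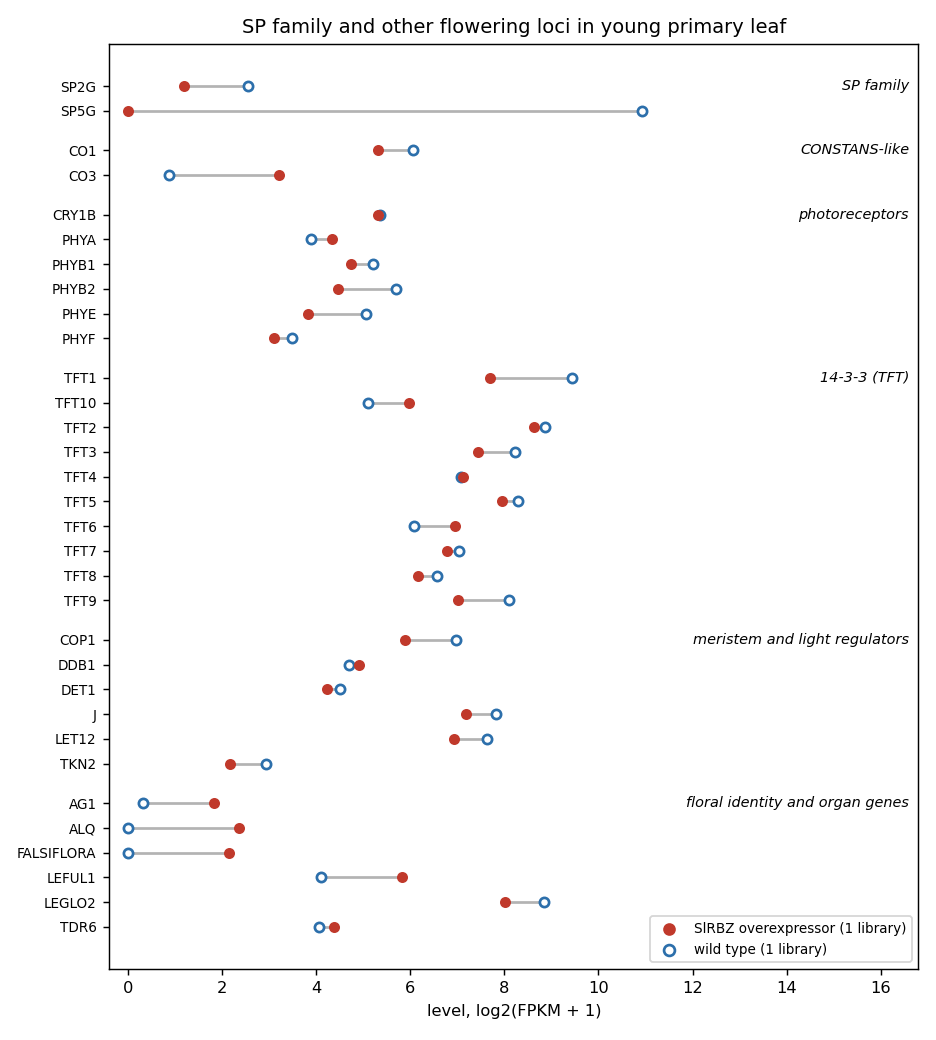
Levels of SP2G, SP5G and 30 other flowering loci as log2(FPKM + 1), with 1 row per locus, grouped by role, filled red points for the SlRBZ overexpressor and open blue points for wild type (1 library each), joined by a grey line. SP5G spans the longest line, from its listed 0 in the overexpressor to 1937 FPKM in wild type. CO3, LEFUL1 and the low floral genes AG1, ALQ and FALSIFLORA have the red point to the right of the blue one by more than 2-fold. PHYA, TFT4, TFT6, TFT10, DDB1 and TDR6 also have it to the right, by less than 2-fold.

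Leaf markers were present in both libraries but unequal. RBCS and CAB symbols stand for genes of the Rubisco small subunit and of light-harvesting proteins. Of 17 such loci, 16 were at least 2-fold lower in the overexpressor, beside 15.0% of all gene loci tested. The summed level of the 17 loci was 44234 FPKM in the overexpressor and 280690 FPKM in wild type. Of 5 symbols fixed for shoot meristem 1 was in the table, TKN2, and LET6 of the same list is another name of that gene. Of 8 fixed for flower and pollen none was found under its own symbol, although TDR6 and AG1 are TM6 and TAG1 of that list. Of 8 symbols fixed for fruit 2 were found, and of 6 for root 1. The fruit symbol PSY1 read 114 FPKM in the overexpressor and 317 FPKM in wild type, past 2-fold lower. E4, the other fruit symbol, read 21.4 and 38.6 FPKM in the same order. The root symbol RSI-1 read 9.13 and 10.1 FPKM, and both E4 and RSI-1 were under 2-fold. The part of leaf composition in the differences of SP5G, SP2G and the floral genes was not tested.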

How the data were processed

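Expression was measured by RNA-seq in 1 library of SlRBZ overexpressors and 1 of wild type. Per the file headers, the authors deposited FPKM per locus, for 22315 loci. TopHat, which aligns reads across splice junctions, is named in the submitters' processing notes. Version, counting tool, annotation and build were not given in the sources used here. Coordinates are those of the table. The sample titles identify both value columns.

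Members and lists were chosen with earlier results of these data known. Named loci were every member, the nearest 3 neighbours of SP5G on each side and any of its 20 neighbours past 2-fold (some given by place only), the 5 symbols nearest to SP5G, and list members past 2-fold. Others are given as context. Differences are log2(FPKM + 1), overexpressor minus wild type, and counts cover loci whose 2 values average 1 FPKM or more. The 2-fold limit is a difference of 1. The prefix SBP was read as SBP with a number, which leaves out SBPASE. No loci were found for GI, COL, SPGB or SPAK. The same holds for the other fixed symbols not named in the text, apart from TFT loci counted there without a name.

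Depth was recovered from gene-free loci of equal length, whose low values are multiples of 1 fragment. The overexpressor's scaling total came to 14.2 M fragments (M for mega), with 92.6% of values within 0.05 of a whole number. That of wild type came to 7.47 M, with 92.0% of values whole. The offset subtracted from the length was 199 bp in both. The share is high partly by selection, since only lengths with a clear step entered. The depth step and the differences were checked on simulated data. Both members matched a RefSeq gene table by symbol. It is of another assembly and was used for names only. Python 3.11.15, pandas 2.3.3 and scipy 1.17.1 were used.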

Additional observations from a re-analysis of the deposited data

How the results depend on the processing

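SP2G was lower under each pseudocount, filter and scaling in which it was measured (−0.96 to −1.85). SP5G, listed at 0, is counted past no limit. At a filter of 5 FPKM SP2G dropped out, which left 0 members past 2-fold, 1249 gene loci higher and 0 of the flowering lists higher. At equal upper quartiles 3 flowering loci were higher and 2 lower, and 2814 gene loci were higher against 1938 lower. At equal sums without the 100 most abundant gene loci (log2 factor 0.67, median of all loci 0.58), 0 members were past 2-fold, 5055 gene loci were higher and 1149 lower, 7 neighbours of SP5G were higher, and 4 flowering loci were higher and 1 lower. At a fold limit of 3, 0 members, 1003 higher gene loci and 1180 lower gene loci remained past it. Of the neighbours of SP5G 0 higher and 1 lower remained, and of the flowering lists 1 higher and 1 lower. In a window of 25 loci each side, 6 neighbours were higher and 3 lower, beside 11.6% higher and 15.0% lower among all gene loci tested. On the strand of SP5G alone, a setting chosen after seeing the data, 1 neighbour was higher and 0 lower. No paired analysis was possible because each genotype has 1 library. Depth limits what can be read from loci of a few FPKM or less, SP2G, CO3 in wild type, AG1, ALQ and FALSIFLORA among them.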
